A study of Danio rerio with 12 samples.

Results

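The genes described here are 8 zebrafish genes of germ plasm and germ cells, ddx4, nanos3, dnd1, dazl, tdrd7a, piwil1, piwil2 and buc, each found by its symbol among the 14850 genes of the deposited RNA-seq tables. The study asked how TALE transcription factors, the homeodomain proteins of the Pbx and Prep families, control gene expression in the early embryo. Whole embryos of the Ekkwill (EKW) strain were sampled at 12hpf (hours post-fertilization, segmentation) and at 6hpf (gastrulation). At each stage there were 3 TALE KD libraries, from embryos injected at the start of cleavage with morpholino antisense oligos against pbx2, pbx4 and prep1.1, and 3 control libraries, giving 12 in all. The oligos were carried in water with phenol red dye. The labels of the other libraries say only control, without stating whether those embryos were injected. If they were not, injection and dye cannot be told apart from loss of TALE function. Each library came from a pool of whole embryos, so its spread is not that between single animals. No group carries a mutation by its labels, and the oligos were given to the entire embryo rather than to the germ line.

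In zebrafish the germ line is set aside by inheritance. The mother loads germ plasm, a mixture of RNAs and proteins gathered by the Bucky ball protein, into the egg, and the few cells that receive it at cleavage become primordial germ cells. The germ plasm RNAs are also present elsewhere in the early embryo, where they are cleared, while in the germ cells they are protected and partly replaced by new transcripts. Primordial germ cells then migrate through the embryo along Cxcl12 towards the future gonad. A whole-embryo library adds RNA of the few germ cells to RNA left in all other cells, and in such bulk samples fewer cells of a type and less RNA per cell cannot be told apart.

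Depth and library identity bear on what follows. Between 19783326 and 40924982 estimated counts fell on genes in the 12hpf libraries, against 11884805 to 15031243 in those of 6hpf. Depth differed between the 12hpf groups. TALE KD replicate 1 had the lowest total and replicate 3 the highest, with about 40844900 in TALE KD replicate 2. The 12hpf controls held about 21747600 to 24933100. Markers of hindbrain and midbrain (egr2b, mafba and pax2a, with en2a not analysed) summed to 67.9 to 73.7 CPM in the TALE KD group and 166 to 168 CPM in the control group at 12hpf, and to at most 2.72 CPM in any 6hpf library. The markers differed at 12hpf: the mean of pax2a was 60.3 CPM in TALE KD and 58.8 CPM in control. Lower in TALE KD were egr2b (mean 0.880 against 52.1 CPM) and mafba (mean 10.1 against 55.8 CPM). The germ cell markers ddx4, nanos3, dnd1, dazl, tdrd7a, ca15b, gra and h1m were all detected at both stages. The targeted transcript pbx2 was at 257, 256 and 235 CPM in the TALE KD group against 83.4, 90.2 and 87.6 CPM in the control group at 12hpf, and since the oligos block translation or splicing, transcript levels do not check the knockdown. Each stage is a separate deposited table, so stage and table cannot be told apart. TALE KD replicate 2 at 6hpf stood apart in a set of maternal RNAs, buc among them, and replicate 3 of both 12hpf groups was low for several germ cell RNAs. At 12hpf replicate 3 was the lowest library in both groups for 25.9% of all genes tested and the highest for 24.0%.

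In TALE KD and control embryos alike, the RNAs of all 8 genes were lower at 12hpf than at 6hpf, while no difference between TALE KD and control passed the test at either stage. The loss was uneven: buc, ddx4 and dazl kept a few percent of their 6hpf level, whereas nanos3 kept 42.7% in TALE KD and 49.3% in control embryos. Levels below are TMM-normalized CPM, read counts divided by a scaled library size so that most genes match between libraries, and are listed for replicates 1, 2 and 3. They compare libraries for the same gene and do not rank genes, since they are not divided by transcript length.

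**Figure D1:**
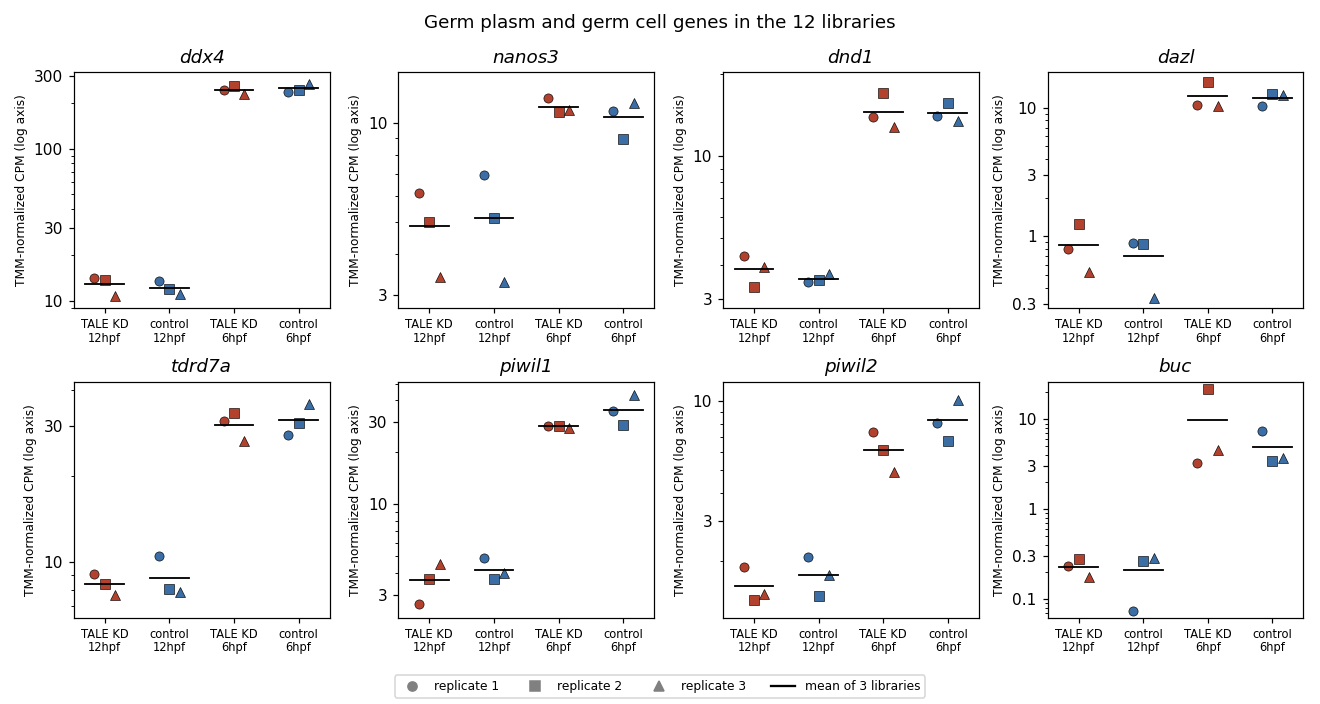
TMM-normalized CPM on a log axis for each of the 8 genes, with points for the 3 libraries of each group (shape gives the replicate) and a bar for their mean. In every panel the 12hpf libraries lie below all 6hpf libraries, and the TALE KD replicate 2 library at 6hpf stands at 22.0 CPM for buc.

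The gene ddx4 (vasa) encodes a DEAD-box RNA helicase of germ granules and is the standard marker of the germ line. In the 12hpf libraries ddx4 stood at 14.2, 13.7 and 10.7 CPM in the TALE KD group and 13.5, 12.0 and 11.0 CPM in the control group. At 6hpf the values were 242, 260 and 228 CPM in the TALE KD group and 238, 243 and 267 CPM in the control group. The groups overlapped within each stage and were far apart between stages. Its 6hpf levels varied by only 6.63% (coefficient of variation) in TALE KD and 6.33% in control libraries, and each 6hpf library held at least 2467 counts of it, more than of any other of the 8.

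Both Piwi genes encode Argonaute-family proteins that bind piRNAs, the small RNAs that silence transposons in the germ line. For piwil1 (ziwi), the 12hpf libraries held 2.64, 3.69 and 4.54 CPM in the TALE KD group and 4.87, 3.71 and 3.98 CPM in the control group. The 6hpf libraries held 28.4, 28.6 and 27.7 CPM in the TALE KD group and 34.7, 28.7 and 42.9 CPM in the control group. All 3 TALE KD values at 6hpf were thus below the lowest control value, though only just (28.6 against 28.7 CPM at the border), and the control values were widely spread. The paralog piwil2 (zili) was at 1.89, 1.36 and 1.45 CPM in the TALE KD group and 2.08, 1.41 and 1.74 CPM in the control group at 12hpf. Its 6hpf levels were 7.33, 6.13 and 4.90 CPM in the TALE KD group and 8.03, 6.72 and 10.2 CPM in the control group, with the same order of group means and with overlap at both stages.

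Tudor domain proteins hold germ granules together by binding methylated arginines of Piwi proteins, and tdrd7a encodes one of them. Its 12hpf levels were 9.06, 8.38 and 7.66 CPM in the TALE KD group and 10.5, 8.06 and 7.84 CPM in the control group. At 6hpf they were 31.2, 33.1 and 26.5 CPM in the TALE KD group and 27.9, 30.6 and 35.7 CPM in the control group, again overlapping within the stage.

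A further 3 genes encode RNA-binding proteins that govern the fate of germ plasm RNAs: Nanos3 represses translation and is needed to keep germ cells alive, Dnd1 shields germ cell RNAs from microRNAs, and Dazl promotes their translation. Levels of nanos3 at 12hpf were 6.13, 5.01 and 3.40 CPM in the TALE KD group and 6.96, 5.12 and 3.28 CPM in the control group. At 6hpf they were 11.9, 10.7 and 10.9 CPM in the TALE KD group and 10.8, 8.94 and 11.5 CPM in the control group. In both 12hpf groups replicate 1 was highest and replicate 3 lowest, and the highest 12hpf library was still below the lowest 6hpf library. For dnd1 the 12hpf levels were 4.29, 3.32 and 3.91 CPM in the TALE KD group and 3.46, 3.51 and 3.69 CPM in the control group. The 6hpf levels were 13.8, 17.0 and 12.8 CPM in the TALE KD group and 14.0, 15.6 and 13.4 CPM in the control group, with replicate 2 highest in both groups. The third gene, dazl, was at 0.802, 1.25 and 0.527 CPM in the TALE KD group and 0.893, 0.879 and 0.332 CPM in the control group at 12hpf. These values stand on 17 to 54 counts in TALE KD and 8 to 24 counts in control libraries, so they are coarse. At 6hpf dazl was at 10.5, 15.8 and 10.4 CPM in the TALE KD group and 10.3, 12.7 and 12.4 CPM in the control group, and replicate 2 was again the highest of each group.

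The gene buc encodes Bucky ball, the protein that organizes the Balbiani body of the oocyte and later the germ plasm. At 12hpf it was near the detection limit, with 5, 12 and 8 counts in TALE KD and 2, 7 and 7 counts in control libraries. Its 6hpf levels were 3.29, 22.0 and 4.53 CPM in the TALE KD group and 7.47, 3.43 and 3.76 CPM in the control group. The TALE KD mean at 6hpf, 9.95 ± 10.5 CPM (SD, n = 3), rests on replicate 2 alone, since replicates 1 and 3 lay within or below the control range.

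The comparison of TALE KD with control asks whether loss of TALE function touched these RNAs, and none of the 8 genes passed. At 12hpf, 0 of the 7 genes tested met the call by edgeR (an adjusted p no higher than 0.01 with at least 1.5-fold change), where 1.55% of the 11640 genes tested were called, and none had an unadjusted p under 0.05, against 27.1% of all genes. The gene buc was not tested at 12hpf because its mean was under 10 counts, the minimum used. At 6hpf, 0 of the 8 genes were called, against 0.0392% of the 10202 genes tested, and 1 had an unadjusted p under 0.05, against 5.66% of all genes. DESeq2 on the same counts also called none of them at either stage.

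How far a difference could hide within the error varied from gene to gene. At 12hpf the log2 fold-change of ddx4 was 0.056 (standard error, SE, 0.13, edgeR adjusted p = 0.831), with a 95% interval from -0.24 to 0.35. That of tdrd7a was -0.093 (interval -0.41 to 0.22) and that of dnd1 0.090 (interval -0.26 to 0.44), so a change of 1.5-fold lies outside the intervals of these 3 genes. In this unpaired fit the intervals of the other 4 genes include it: -0.80 to 0.57 for nanos3, -0.69 to 0.29 for piwil1, -0.73 to 0.35 for piwil2 and -0.76 to 1.30 for dazl. With replicates paired as blocks the estimate of nanos3 was -0.073 (SE 0.12, against 0.30 unpaired). The paired SE was 0.19 for piwil1, 0.20 for piwil2 and 0.29 for dazl, against 0.21, 0.23 and 0.45 unpaired. Without replicate 3 of both groups the estimates were -0.16 for nanos3 and 0.27 for dazl, and again neither was called. At 6hpf ddx4 had a log2 fold-change of -0.033 (SE 0.08, edgeR adjusted p = 0.998) and an interval from -0.21 to 0.15, or 86.2% to 111% of the control level. The estimates for nanos3, dnd1, dazl and tdrd7a at 6hpf lay between -0.049 and 0.10 on the log2 scale, each with an interval inside ±0.50, short of 1.5-fold.

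Of the 8 genes, piwil1 and piwil2 had the lowest estimates at 6hpf. The log2 fold-change of piwil1 was -0.32 (SE 0.14, unadjusted p = 0.0443, edgeR adjusted p = 0.869), with an interval from -0.64 to -0.010, and it ran from -0.45 to -0.16 when each library was left out in turn. That of piwil2 was -0.43 (SE 0.21, edgeR adjusted p = 0.927), with an interval from -0.91 to 0.049 and a range from -0.58 to -0.26 with each library left out. Across all genes tested, 5.98% had all TALE KD libraries below all control libraries at this stage, as piwil1 did. At 12hpf the estimates were -0.20 for piwil1 and -0.19 for piwil2, and with each library left out they ran from -0.39 to -0.038 for piwil1 and from -0.33 to -0.043 for piwil2. For buc at 6hpf the estimate was 1.04 (SE 0.65, edgeR adjusted p = 0.998, interval -0.43 to 2.52) with all libraries and -0.32 without TALE KD replicate 2. Without that library the estimates of dazl (0.054 with all libraries) and dnd1 (0.022) also changed sign, to -0.18 for dazl and -0.11 for dnd1.

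**Figure D2:**
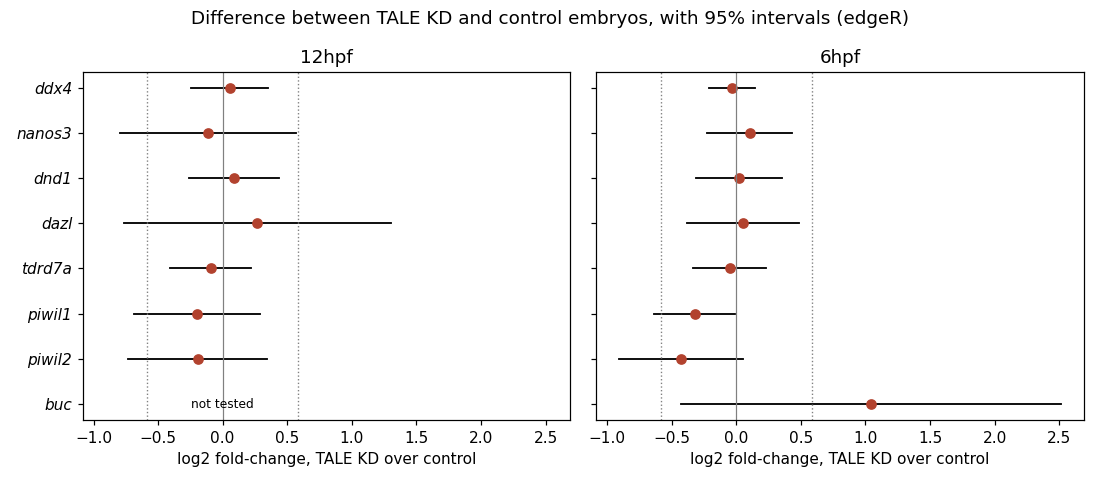
Log2 fold-change of TALE KD over control at 12hpf (left) and 6hpf (right) for each gene, with points for the edgeR estimate and lines for its 95% interval; dotted lines mark 1.5-fold. Every interval includes 0 except that of piwil1 at 6hpf (-0.64 to -0.010), and the widest is that of buc at 6hpf.

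The effect of TALE KD at 12hpf was also set against that at 6hpf in a single fit over the 12 libraries. None of the 8 genes was called, against 0.0349% of 11450 genes tested, and none had an unadjusted p under 0.05, against 8.67% of all genes. The largest estimate in size was that of buc, -0.91 (SE 1.26, edgeR adjusted p = 0.895), which was 0.44 without TALE KD replicate 2 at 6hpf. The other 7 estimates lay between -0.21 for nanos3 and 0.25 for piwil2.

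The stage comparison asks how these RNAs changed over the hours between gastrulation and segmentation. All 8 genes were called lower at 12hpf in TALE KD embryos, where 25.1% of the 11450 genes tested were called lower, and all 8 in control embryos, where 26.0% were. The median log2 fold-change of the 8 was -2.46 in TALE KD and -2.66 in control embryos, against a median of 0.086 (TALE KD) and 0.087 (control) over all genes tested. One of these calls, that of buc, was made on a mean of 8.33 counts in TALE KD and 5.33 counts in control libraries at 12hpf, under the minimum of 10, so buc was tested only through its 6hpf libraries. The other 7 genes had medians of -1.99 in TALE KD and -2.24 in control embryos. Each of the 8 had every 12hpf library below every 6hpf library of its group, as did 37.2% of all genes in TALE KD and 37.6% in control embryos. Scaling by library totals in place of TMM moved the median of all genes up by 0.23 in TALE KD and 0.24 in control embryos on the log2 scale, so the falls below are relative to the bulk of other RNAs, not to an absolute amount per embryo.

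Among the well-counted genes, the germ granule helicase had the steepest fall. The log2 fold-change of ddx4 between stages was -4.25 (SE 0.11, edgeR adjusted p = 2.07e-12) in TALE KD and -4.36 (SE 0.12, edgeR adjusted p = 1.57e-12) in control embryos, which leaves 5.24% of the 6hpf level in TALE KD and 4.88% in control embryos. For dazl it was -3.82 (SE 0.32, edgeR adjusted p = 9.58e-08) in TALE KD and -4.05 (SE 0.34, edgeR adjusted p = 8.51e-08) in control embryos. Without replicate 3 of both 12hpf groups the values were -4.12 in TALE KD and -4.28 in control embryos for ddx4, and -3.50 in TALE KD and -3.71 in control embryos for dazl, and the calls held. For buc the log2 fold-change was -5.42 (SE 0.74, edgeR adjusted p = 1.37e-05) in TALE KD and -4.51 (SE 0.80, edgeR adjusted p = 1.55e-04) in control embryos. Without TALE KD replicate 2 at 6hpf the TALE KD value of buc was -4.07, and the call held.

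A middle set kept 11.9% to 28.0% of its 6hpf RNA. For piwil1, 13.2% was left in TALE KD and 11.9% in control embryos, a log2 fold-change of -2.92 in TALE KD and -3.08 in control embryos. For piwil2, 25.1% was left in TALE KD and 21.1% in control embryos. For dnd1 it was 26.2% in TALE KD and 24.8% in control, and for tdrd7a 27.5% in TALE KD and 28.0% in control embryos. The intervals of these last 3 genes overlapped one another in both groups, and that of piwil1 lay below those of dnd1 and tdrd7a in both.

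The survival factor nanos3 fell least. Its log2 fold-change was -1.23 (SE 0.25, edgeR adjusted p = 4.81e-04) in TALE KD and -1.02 (SE 0.25, edgeR adjusted p = 0.00201) in control embryos. Its interval in control embryos, -1.56 to -0.48, did not overlap that of dnd1 (-2.32 to -1.70) and overlapped that of tdrd7a (-2.13 to -1.54) only narrowly. In TALE KD embryos the interval of nanos3, -1.76 to -0.69, overlapped those of dnd1, tdrd7a and piwil2. Without replicate 3 of both 12hpf groups the log2 fold-change of nanos3 was -1.01 in TALE KD and -0.77 in control embryos, and both calls held. The summed level of the 8 genes was 39.2, 36.9 and 32.4 CPM in the TALE KD group and 42.3, 34.9 and 32.2 CPM in the control group at 12hpf, against 349, 394 and 326 CPM in the TALE KD group and 351, 349 and 397 CPM in the control group at 6hpf.

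**Figure D3:**
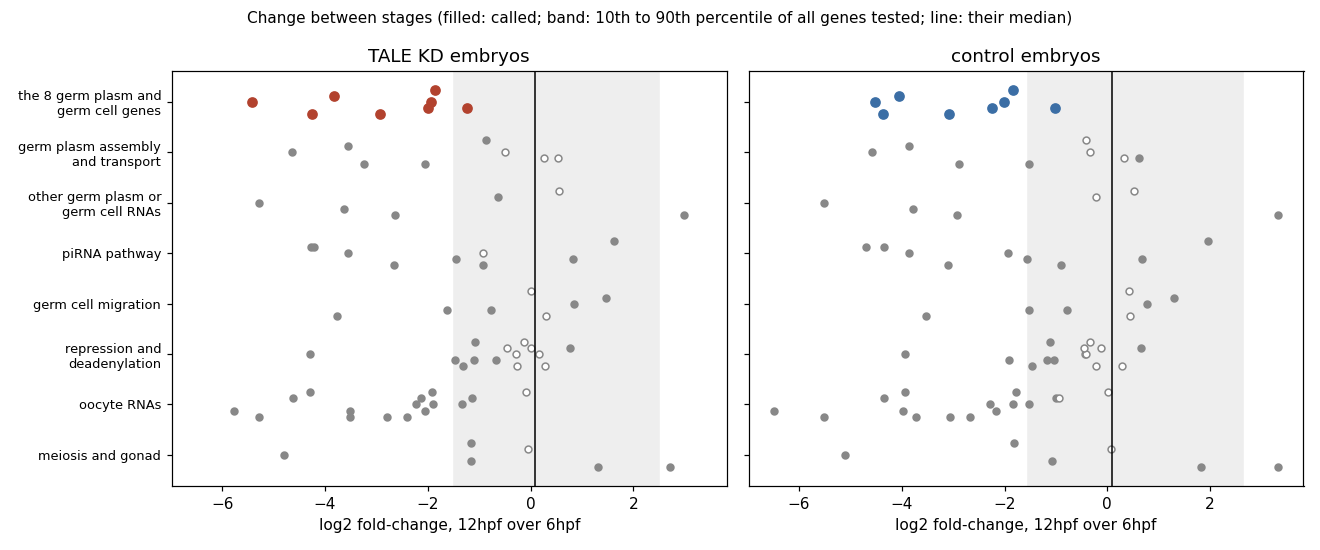
Log2 fold-change of 12hpf over 6hpf in TALE KD (left) and control (right) embryos for the 8 genes (coloured) and for other genes of each list (grey); filled points were called, the band spans the 10th to 90th percentile of all genes tested and the line is their median. Of the 8 genes, nanos3 is nearest the median, at -1.23 in TALE KD and -1.02 in control embryos, and is the only one inside the band.

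Calls in the rest of the germ plasm machinery went in both directions between stages. Of all genes tested, 31.5% were called higher at 12hpf in TALE KD and 32.8% in control embryos. Among 8 tested genes of germ plasm assembly and transport besides buc, 5 were called lower and 0 higher in TALE KD, and 4 lower and 1 higher in control embryos. One of these control calls, that of birc5b, rests on a mean under 10 counts at 12hpf. The RNA-binding partner gene of Buc, rbpms2b, fell by 4.58 on the log2 scale in control embryos, and tdrd6, a Tudor gene whose product binds Buc in zebrafish, fell by 3.86, or by 3.55 without replicate 3 of both 12hpf groups. The paralog rbpms2a was called higher in control embryos (log2 fold-change 0.62) and not in TALE KD embryos (0.53, under 1.5-fold), but it was called in TALE KD without replicate 2 at 6hpf (0.64). Of 6 other RNAs of germ plasm or germ cells, 4 were called lower and 1 higher in TALE KD, and 3 lower and 1 higher in control embryos. The germ cell RNAs h1m, gra and ca15b fell by 5.52, 3.78 and 2.93 on the same scale in control embryos, while nanos1 rose by 3.33. That rise starts near the detection limit, from 7, 19 and 9 counts of nanos1 in the 6hpf control libraries. In the 6hpf TALE KD libraries its mean was 9.33 counts, under the minimum of 10. Without replicate 3 of both 12hpf groups the fall of ca15b was 2.65.

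Of the 12 tested piRNA pathway genes, ddx4, piwil1 and piwil2 included, 9 were called lower and 2 higher in TALE KD, and 10 lower and 2 higher in control embryos. The genes tdrd9 and gpat2 fell by 4.69 and 4.35 on the log2 scale in control embryos, close to the fall of ddx4. Another 2 Tudor genes went the other way on this scale: tdrkh rose by 1.96 and tdrd5 by 0.68, but without replicate 3 of both 12hpf groups tdrd5 was not called (0.58). Of 7 tested genes of germ cell migration, 3 were called lower and 2 higher in both groups. The receptor gene cxcr4b, which germ cells use to follow Cxcl12 and which other tissues of the gastrula also express, fell by 3.52 on the log2 scale in control embryos. Its paralog cxcr4a fell by 1.52 and the E-cadherin gene cdh1 by 0.78, while the guidance cues cxcl12b and cxcl12a rose by 1.29 and 0.78.

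Among 14 tested partners of Nanos in translational repression and deadenylation, 6 were called lower and 1 higher in both groups. On the log2 scale in control embryos tnrc6a fell by 1.91 and cnot7 rose by 0.66. The deadenylation gene btg4 was called lower on 6, 5 and 0 counts in the 12hpf control libraries, so it was tested through its 6hpf libraries and its fitted fall is not a precise value. Of 16 tested oocyte RNAs, 15 were called lower in TALE KD and 14 in control embryos, and 0 were called higher in either. The meiotic cyclin gene ccna1 fell by 6.49 on the log2 scale and cpeb1b, a regulator of polyadenylation in the oocyte, by 4.34 in control embryos, where cpeb1b had only 4 to 14 counts at 12hpf. Both btg4 and cpeb1b were among the 14 control calls, and 12 rested on a mean of 10 counts or more at 12hpf. Of 6 tested genes of meiosis and gonad, 3 were called lower and 2 higher in both groups. On the log2 scale in control embryos dmrt1 and sycp3 fell by 1.81 and 1.07, and sox9a and sycp1 rose by 3.31 and 1.81. The other gene called lower, spo11, had 7, 2 and 1 counts in the control libraries at 12hpf, against 54 to 70 at 6hpf, and was likewise tested through its 6hpf libraries. The medians of these lists in control embryos ran from -2.66 for the piRNA pathway to 0.42 for migration, against 0.087 over all genes tested.

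Between TALE KD and control, 1 of 61 tested list genes besides the 8 was called at 12hpf, or 1.64%, near the 1.55% of all genes, and 0 of 63 were called at 6hpf. At 12hpf sox9a, a gene of the gonad that is also widely expressed in embryonic cartilage precursors and somites, was at 6.70, 7.06 and 6.26 CPM in the TALE KD group against 19.2, 17.5 and 16.0 CPM in the control group. Its log2 fold-change was -1.41 (SE 0.10, edgeR adjusted p = 4.53e-04). The groups did not overlap, with TALE KD below control, as for 15.8% of all genes tested. The gene nanos1 was at 5.90, 5.26 and 6.83 CPM in the TALE KD group and 9.19, 9.02 and 8.71 CPM in the control group at 12hpf. Its log2 fold-change of -0.59 (SE 0.12, edgeR adjusted p = 0.0226) did not pass the threshold, but passed once replicates were paired as blocks (-0.60, edgeR adjusted p = 0.00294). It also passed without TALE KD replicate 3 (-0.71, edgeR adjusted p = 0.00515) and without replicate 3 of both groups (-0.74, edgeR adjusted p = 6.45e-05). With any other single 12hpf library left out nanos1 did not pass (edgeR adjusted p = 0.0395 to 0.0945). All its TALE KD libraries were below all control libraries, which held for 15.8% of all genes tested at 12hpf. Without replicate 3 of both groups, hook2 (-0.64) and tnrc6a (0.59) were called too, and calls over all genes numbered 729 against 181. The gene nanos3 was not called in any of these fits.

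Among piRNA pathway genes the lowest estimate at 6hpf was that of gpat2, which encodes a mitochondrial acyltransferase tied to piRNA production in the mouse. It was at 7.11, 7.19 and 9.15 CPM in the TALE KD group against 12.4, 14.5 and 16.9 CPM in the control group, a log2 fold-change of -0.90 (SE 0.17, edgeR adjusted p = 0.136) that was not called. With replicates paired as blocks it was -0.90 (SE 0.12, edgeR adjusted p = 0.0107), just over the threshold and also not called. The gene gpat2 was picked out after its values were seen. Of the 12 tested genes of that list, 0 were called at 6hpf. A negative estimate was found for 10 of them, with ddx4, piwil1, piwil2 and gpat2 among the 10. The median was -0.20 against 0.0095 over all genes, and 6 of 12 had a negative estimate at 12hpf. Summed over this list, control replicate 3 stood highest at 6hpf with 543 CPM. Every other 6hpf library, of either group, lay between 437 and 465 CPM, so the gap in the sum rests on that control library. For 3 of the 12 genes, all TALE KD libraries were below all control libraries at 6hpf. The 6hpf medians of the lists ran from -0.26 for meiosis and gonad (4 of 6 genes negative) to 0.10 for germ plasm assembly and transport (8 of 9 positive). Of those positive, buc, birc5b, mid1ip1l and rbpms2a were higher in TALE KD replicate 2 than in every other 6hpf library. Of all genes tested, 15.4% were highest in that library. For 2 genes of the list, birc5b and ybx1, all TALE KD libraries were above all control libraries, as for 5.06% of all genes tested. The guidance cue cxcl12b and the Nanos partner pum2 passed the adjusted p but not the fold-change at 12hpf, with log2 fold-changes of 0.29 (edgeR adjusted p = 0.00811) and 0.39 (edgeR adjusted p = 0.00503).

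TALE KD replicate 2 at 6hpf was set apart by a few oocyte RNAs as well as by buc. It was the highest of the 6 libraries for 11 of 15 tested oocyte RNAs, against 0 to 3 in each other library. Only 3 of the 15 (ccna1, cpeb1b and btg4) were at least 1.5-fold above every other library there. Others exceeded the next library only slightly, such as zp2.1 (1.01 times) and ccnb1 (1.03 times), and org was low (18.4 CPM, against up to 32.6 CPM elsewhere). In TALE KD replicate 2 ccna1 was at 99.1 CPM, against at most 48.6 CPM elsewhere at 6hpf, and cpeb1b stood at 19.5 CPM against at most 7.95 CPM. Over all genes tested, 50 were at least 1.5-fold above every other library in this one, against 13 to 47 in each of the others. At least 2-fold above every other library were 13 genes in this one, against 2 or 3 in each of the others. Among them, and chosen after their values were seen, were slbp2, which encodes an oocyte histone mRNA-binding protein, at 7.57 against at most 1.48 CPM, and cldng at 28.1 against at most 11.7 CPM. Of the 8 genes, buc (2.95 times the next library), dazl (1.25 times) and dnd1 (1.09 times) were highest there, as were 15.4% of all genes tested. Control replicate 3 was the highest library for ddx4, tdrd7a, piwil1 and piwil2, 4 of the 8, and for 18.1% of all genes tested. What set TALE KD replicate 2 apart was not tested.

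**Figure D4:**
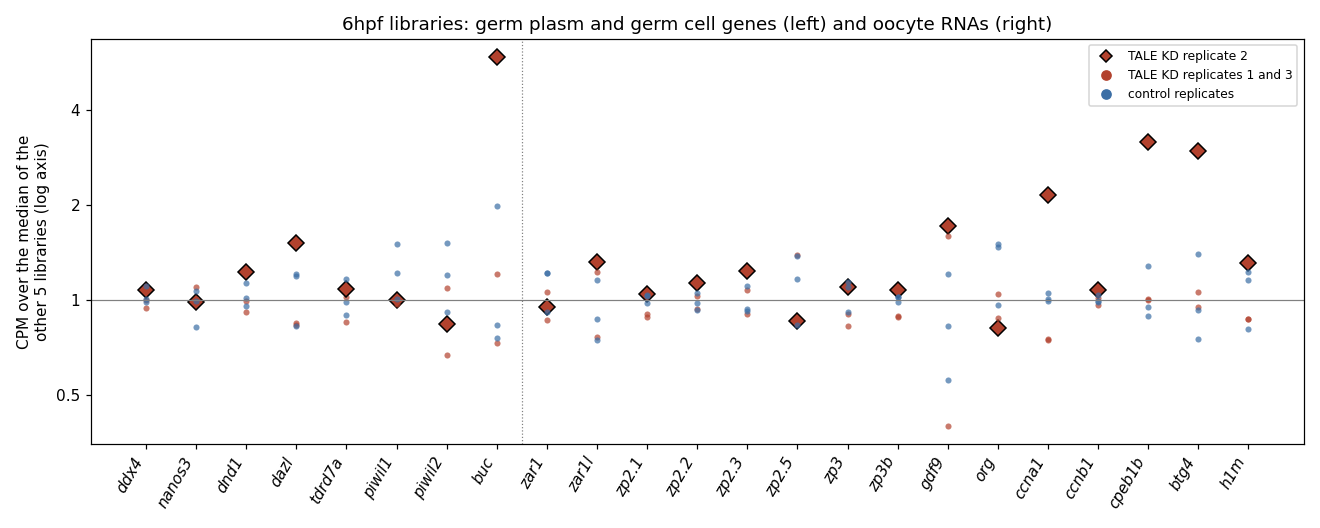
Level of each gene in each 6hpf library over the median of the other 5 libraries, on a log axis, for the 8 genes (left of the dotted line) and tested oocyte RNAs (right); diamonds mark TALE KD replicate 2. The diamond is at 5.86 for buc and near 1 for ddx4, nanos3 and piwil1, while ccna1, cpeb1b and btg4 stand above every other library.

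At 12hpf several germ cell RNAs had the same order of replicates in both groups. Replicate 3 was the lowest library of its group in TALE KD and control alike for ddx4, nanos3, dazl and tdrd7a, 4 of the 7 tested genes, as it was for 25.9% of all genes tested. It was the highest in both groups for another 24.0% of all genes, so its difference was not limited to germ cell RNAs. Replicate 1 was highest in both for ddx4, nanos3, tdrd7a and piwil2, against 10.7% of all genes. As a share of the mean of replicates 1 and 2, replicate 3 held 61.1% of nanos3 in TALE KD and 54.3% in control. For dazl it held 51.4% in TALE KD and 37.5% in control. The share was milder for ddx4, 76.9% in TALE KD and 86.6% in control. It was near or above 100% for dnd1 (103% in TALE KD and 106% in control). Outside the 8 genes, tdrd6 (57.2% in TALE KD and 41.9% in control) and ca15b (50.8% in TALE KD and 48.9% in control) were low in replicate 3 too, whereas the maternal histone gene h1m was not (105% in TALE KD and 109% in control). The mesendoderm marker sox32, not on the germ cell lists, was also low there (38.0% in TALE KD and 50.8% in control). It was the lowest of its marker list. The others ran from 69.5% (gsc) to 98.3% (ta) in TALE KD and from 86.5% (gsc) to 96.0% (ta) in control. The pattern of replicate 3 was noticed after the values were seen.

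**Figure D5:**
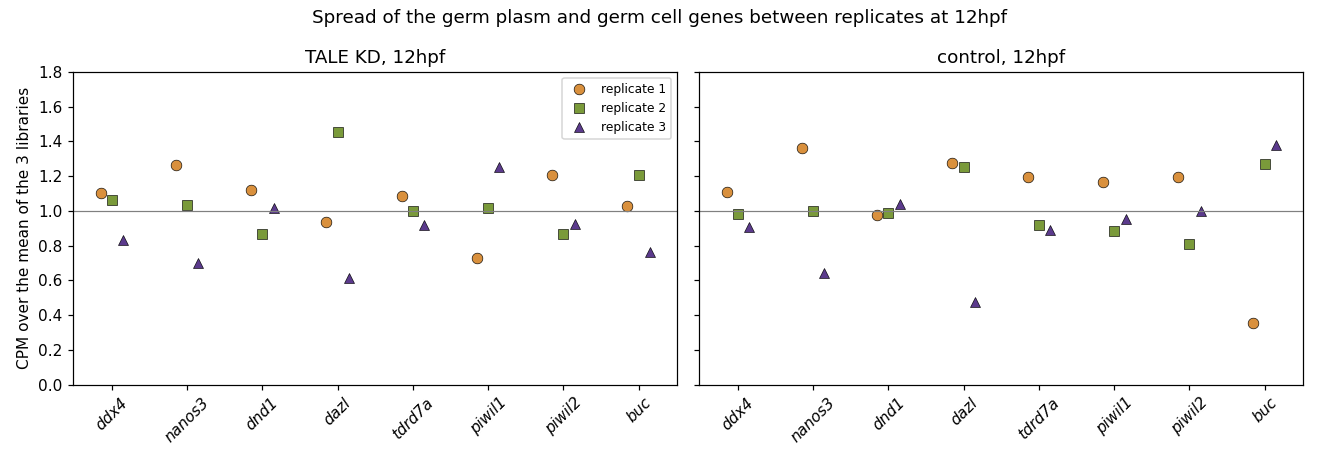
Level of each gene in each 12hpf library over the mean of its group, for TALE KD (left) and control (right), with shape and colour giving the replicate. Replicate 3 is lowest in both panels for ddx4, nanos3, dazl and tdrd7a, while buc, with at most 12 counts a library, has no shared order.

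With the group means taken off, the pairs of the 8 genes with the highest correlations over the 12 libraries were ddx4 with tdrd7a (Pearson r = 0.83), ddx4 with nanos3 (r = 0.82), ddx4 with dazl (r = 0.74), tdrd7a with piwil2 (r = 0.72) and nanos3 with tdrd7a (r = 0.66). The lowest value was that of dnd1 with piwil1 (r = -0.41). These are descriptions over libraries that share replicate numbers between groups and differ in depth. The genes most like ddx4 by this measure, on log2(CPM + 1), were b3galt6 (r = 0.97), zgc:113858 and twistnb (r = 0.96 each), zgc:154064 (r = 0.93) and arvcfb (r = 0.92). Those most like nanos3 were zgc:152652, nucks1a, zgc:171977 and cldn7b (r = 0.96 each) and crk (r = 0.95).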

How the data were processed

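PolyA RNA from pools of whole embryos was sequenced with a stranded mRNA kit. The authors quantified reads on the DanRer10 (GRCz10) transcriptome with RSEM 1.2.28, per the submitters' processing notes, which also name FastQC and DESeq2. The deposited tables are named TPM, but each library sums to its own total and 75.4% to 80.0% of values are whole, so they were read as the authors' expected counts (estimated counts) per gene. RSEM divides reads between paralogs. The 12hpf columns name group and replicate but not stage, which was taken from the table. No sequence or coordinate was used.

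Counts were rounded and tested with edgeR 4.0.16 (R 4.3.3) (quasi-likelihood, TMM scaling), keeping genes that averaged 10 counts or more in the fitted libraries and adjusting p by Benjamini-Hochberg over all of them. TALE KD was compared with control in 6 libraries per stage. Stage contrasts and their difference came from 1 fit of 12 libraries. Printed levels and overlaps use 1 TMM scaling over the 12 libraries. Genes were called at the thresholds of the study, 0.01 for the adjusted p and 1.5 for the fold-change. Alternatives were DESeq2 1.42.0, other scalings, no filter, an adjusted p of 0.05, the replicate block and leaving libraries out, which was extended to list genes after seeing the data. The study set aside 1 outlier at 12hpf without naming it, so all libraries were kept. Scripts were tested on simulated data.

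The genes named are the 8 genes, list genes called between TALE KD and control, at most 3 called per direction and list between stages in controls, and the 5 genes most like ddx4 and nanos3. Others are marked as picked after seeing values, and 1 gene that the rule names is not reported here. The 8 genes and the lists were chosen with earlier results of these data known. Same-numbered TALE KD and control libraries deviated together (r = 0.33 to 0.48 at 6hpf and 0.34 to 0.58 at 12hpf). Differently numbered ones had r = -0.37 to -0.053 at 6hpf and -0.45 to 0.32 at 12hpf. At 12hpf TALE KD replicate 1 with control replicate 2 had r = 0.30, and TALE KD replicate 2 with control replicate 1 had r = 0.32. A pairing of replicates 1 and 2 is thus not shown at 12hpf. The main tests did not pair libraries, and the replicate block was run as an alternative. The labels call replicates biological without saying what each number shares, so p-values measure the spread between these pools of embryos.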

Additional observations from a re-analysis of the deposited data

How the results depend on the processing

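The counts of called genes among the 8 were the same under every alternative run: 0 between TALE KD and control at either stage, 8 lower at 12hpf in both groups, and 0 for the difference of effects. Of 658 values of single genes under the alternatives, 630 kept their direction and side of the threshold and 28 changed sign, none of them called. Leaving out each library in turn gave these ranges of log2 fold-change for TALE KD over control: at 12hpf -0.35 to 0.17 for nanos3, -0.17 to 0.053 for tdrd7a, -0.015 to 0.17 for ddx4 and -0.15 to 0.56 for dazl, and at 6hpf -0.18 to 0.16 for dazl, -0.084 to 0.019 for ddx4, -0.11 to 0.11 for dnd1, -0.13 to 0.050 for tdrd7a and -0.32 to 1.48 for buc. For the difference of effects (12hpf minus 6hpf) the ranges were -0.14 to 0.12 for tdrd7a, -1.35 to 0.44 for buc, -0.041 to 0.30 for piwil1, -0.016 to 0.20 for dnd1, -0.44 to 0.080 for nanos3 and -0.22 to 0.53 for dazl, and piwil1 turned to -0.076 with replicate 3 of both 12hpf groups left out. The cause of these changes was not tested. With the replicate block 0 of the 8 genes were called between TALE KD and control at either stage and 8 were called lower at 12hpf in both groups, and among list genes between TALE KD and control the block added the call of nanos1 alone. Over all genes, calls at 12hpf numbered 181, against 476 with the block, 326 with DESeq2, 1239 at an adjusted p of 0.05 with no fold limit, 729 without replicate 3 of both groups and 20 to 472 with each library left out. At 6hpf they numbered 4, against 23, 28 and 17 under the first 3 of these, 10 with no filter, 15 in the fit of 12 libraries and 0 or 1 with each library left out. Without the filter buc at 12hpf had a log2 fold-change of 0.11 (SE 0.57, edgeR adjusted p = 0.935). Depth limits dazl and buc at 12hpf most.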
